A study of Rattus norvegicus with 18 samples.

Results

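Gene expression in the hypothalamus of rats that had been restrained and had access to a running wheel was compared with that of untreated rats. The comparison rests on 12 of the 18 arrays of the series: 6 rats given both restraint and wheel (called exercised rats here) and 6 control rats. The other 6 rats were restrained without a wheel (stress rats), and they enter as a measure of how the arrays differ between slides. All were male Wistar rats aged 9 weeks. For 3 weeks, restraint was applied on 5 days of each week, for 1 to 1.5 h each time. The wheel was open for 4 weeks, of which 1 week came before the restraint began, and how far the rats ran is not stated in the labels. Control rats had neither. The difference between exercised and control rats therefore joins the effects of restraint and wheel. Each rat gave 1 hypothalamus, dissected by a single operator, and 1 one-colour array.

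The hypothalamus holds the neurons that start the hormonal stress response. Cells of the paraventricular nucleus release corticotropin-releasing hormone (Crh) and vasopressin (Avp), which drive the pituitary and, through it, the adrenal glucocorticoids. The same tissue sets feeding, fluid balance and blood pressure through peptides such as neuropeptide Y (Npy) and thyrotropin-releasing hormone (Trh). Repeated restraint is a standard psychological stressor in rats, and voluntary running is used to study how exercise alters the response to it. Levels below are log2 intensities relative to the array's own 75th percentile, so that 0 is that percentile, and they are compared only within a gene.

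The arrays differed first by slide. Their 75th-percentile intensities ran from 1963 to 2422, and between 63.6% and 77.8% of the 45598 probes were well above background. No slide held both a control and an exercised rat. Stress rats 1 to 4 had a slide of their own, and stress rats 5 and 6 shared a slide with exercised rats 1 and 2. On the first principal component, which took 32.82% of the variance, the 10 arrays of the control rats and stress rats 1 to 4 lay between -33.1 and -21.0. The 8 arrays of stress rats 5 and 6 and the exercised rats lay between 25.4 and 40.3. Stress rats of 1 treatment thus fell on both sides, and the 2 sets of slides are called slide sets below. Slide set and treatment cannot be told apart in the comparison of exercised with control rats. Nothing in the labels says more of how rats were housed or grouped. The p-values and standard errors of the comparison pool the spread within the control, stress and exercised groups. Because the stress rats lay on both slide sets, that spread includes the difference between slide sets and does not measure the rats alone.

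In all, 31195 probes were tested, and 16646 of them had a name, for 13026 genes. Calls were made in limma where the adjusted p (Benjamini-Hochberg) was below 0.05. Of the probes, 8164 (26.2%) were called, 3440 (11%) higher and 4724 (15.1%) lower in exercised rats. A gene is represented by its brightest tested probe, and 3473 of the genes (26.7%) were called, 2002 (15.4%) higher and 1471 (11.3%) lower. The split depended on how arrays were scaled, with 42.1% of the called probes higher here, 55.3% after quantile normalization and 14% with no scaling. With no scaling 5182 probes (16.6%) and 1692 genes (13%) were called, 405 genes (3.11%) higher and 1287 (9.88%) lower. Within the first and the other scan day, 4884 (15.7%) and 5310 (17%) probes were called. Most differences were small. The median was 0.21 among genes called higher and -0.37 among those called lower, against 0.03 over all genes. A total of 93 genes were more than 1 log2 unit lower and 0 were more than 1 unit higher. Another tested probe existed for 784 of the called genes, and in 331 of them at least 1 such probe had a difference of the other sign.

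Because stress rats lay on both slide sets, the difference could be split into 3 steps that add up to it. The restraint step is the mean of stress rats 1 to 4 minus the control mean, on the slides of the first set. The slide step is stress rats 5 and 6 minus stress rats 1 to 4, which had the same treatment. The former were scanned on day 1 and the latter on day 2, and the level of pituitary markers differed widely between them, so slide, scan day and the rats themselves cannot be told apart in this step. The wheel step is the exercised mean minus stress rats 5 and 6, on the slides of the second set. Only exercised rats 1 and 2 shared the slide and scan day of stress rats 5 and 6. Exercised rats 3 to 6 were on another slide, scanned on day 2, so wheel, slide and scan day are mixed in this step too. The restraint step also compares different slides, since no slide held a control and a stress rat. Among the called genes the slide step had the sign of the whole difference in 3154 of 3473 (90.81%), against 72% of all genes tested. Its median share of the difference was 72.1% among called genes and 71.81% over all genes, so that the share did not set called genes apart. The restraint step made up 12.66% (12.42% over all genes) and the wheel step 14.08% (15.14%). The slide step itself was called in 1928 genes (14.8%). Neither of the other steps gave many calls in limma, with 0 genes (0%) for the restraint step and 1 gene (0.00768%) for the wheel step, although 1234 and 862 genes had an unadjusted p under 0.05. With slide set as a covariate 7 probes (0.0224%) passed the threshold, most of which were not called without it. That fit had a median standard error of 0.11 per gene, against 0.066 without the covariate. With slide as a random block 1769 probes (5.67%) and 548 genes (4.21%) were called, 181 (1.39%) higher and 367 (2.82%) lower. In that fit 2557 of the 13026 genes had an unadjusted p under 0.05 in limma, against 5023 without the block.

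**Figure D1:**
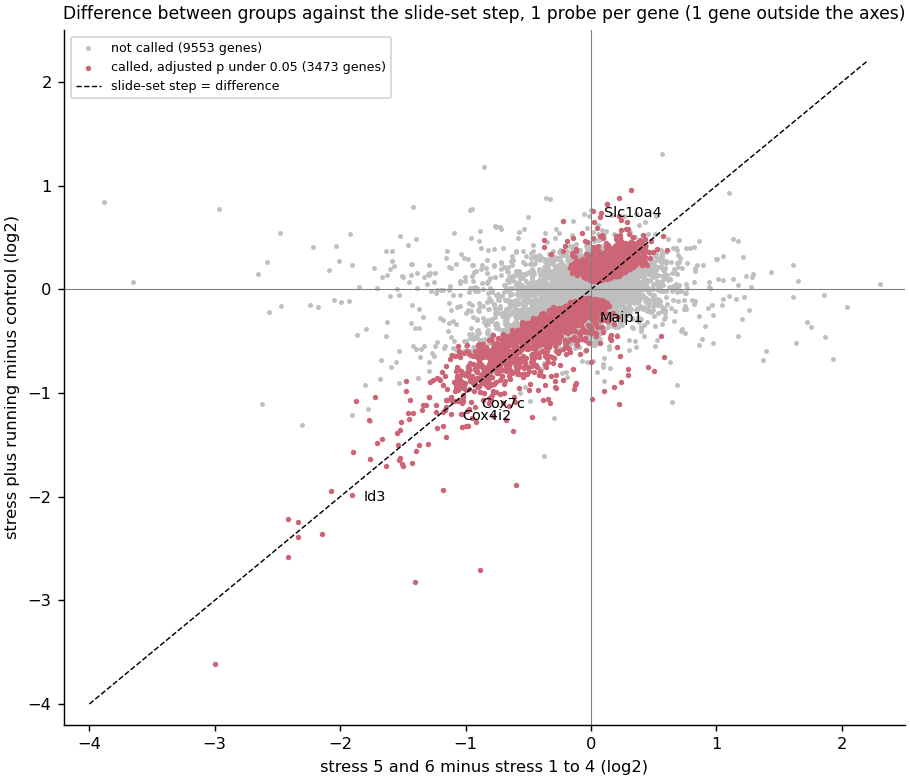
Each point is 1 gene, with the slide step (stress rats 5 and 6 minus stress rats 1 to 4, log2) on the x axis and the difference between exercised and control rats (log2) on the y axis. The dashed line is where both are equal. Of the 3473 called genes (red) 3154 share the sign of the slide step. The slide step is over 75% of the difference in 1656 of them and 25% to 75% in 1192, and 1 gene lies outside the axes.

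Each called gene was then placed by where the 6 stress rats fell between the group means. In 1333 genes (38.4% of those called) stress rats 1 to 4 were nearer the control mean and stress rats 5 and 6 nearer the exercised mean. This split along the slide set was seen in 10.3% of the genes not called. With slide as a random block 350 of the 1333 (26.3%) stayed called, against 15.8% of the called genes. Passing that fit therefore does not show that a difference is free of the slide set. In 91 genes (2.62%) all stress rats were nearer the control mean, so that the exercised rats stood alone. In 41 genes (1.18%) all were nearer the exercised mean, so that restrained rats with and without a wheel stood together. The other 2008 (57.8%) were mixed. Having all stress rats on 1 side was more frequent among the genes not called, at 3.59% (control side) and 2.82% (exercised side).

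The largest differences lay in the genes split along the slide set. Cox7c, a small subunit of cytochrome c oxidase, had levels of 1.07, 1.11 and 1.22 (lowest, median, highest) in control rats and -0.03, 0.02 and 0.15 in exercised rats. The groups did not overlap, and stress rats 5 and 6, at 0.02 and 0.15, lay within the exercised range, while stress rats 1 to 4 lay between 1.00 and 1.08. The difference was -1.09 ± 0.16 (log2 ± SE), or 2.13-fold lower, with an adjusted p of 0.000607 (0.0195 with slide as a random block). The SD was 0.06 in control, 0.07 in exercised and 0.50 in stress rats, so this SE includes the slide step within the stress group. The slide step of Cox7c was -0.96, its restraint step -0.09 and its wheel step -0.04.

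Cox4i2, an isoform of subunit 4 of the same enzyme, showed this shape too. Its control levels were 0.63, 0.81 and 0.91, and its exercised levels were -0.51, -0.40 and -0.34. Stress rats 5 and 6, at -0.36 and -0.40, again sat among the exercised rats, and the groups were apart. Of its difference of -1.21 ± 0.19 (adjusted p 0.000658, and 0.0195 with slide as a random block) the slide step was -1.11. Id3, a helix-loop-helix protein that blocks DNA binding by its partners, was lower by a difference of -1.99 ± 0.33 (adjusted p 0.000776), with a slide step of -1.90. Cyp11a1, which makes the first step from cholesterol to steroids, differed by -1.94 ± 0.37 and had a slide step of -2.07. The sterol transporter gene Abcg8 and the ribosomal-protein-like gene Rpl39l5 differed by -2.22 and -2.24, with slide steps of -2.42 and -2.33. In these 3 genes the slide step was larger than the whole difference.

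Agtr1b, Sox9 and RT1-CE5 were lower and split along the slide set as well. The angiotensin receptor gene Agtr1b differed by -1.93 ± 0.29 with a slide step of -1.18, and its probe was well above background in 6 control and 3 exercised arrays. The astrocyte transcription factor gene Sox9 differed by -0.80 with a slide step of -0.82, while its other probes ran from -0.65 to 0.06. RT1-CE5, a class I antigen-presenting gene with close relatives that a probe may also read, was well above background in 0 exercised arrays. Its level was at least 3.36-fold lower there (group means -6.13 and -9.75, adjusted p 0.000576), and its probe was not well above background in stress rats 5 and 6 either. That fold sets the control mean against the exercised arrays' background floor.

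Higher genes split the same way by smaller amounts. Grin1, the subunit that every NMDA-type glutamate receptor needs, had control levels of 0.63, 0.79 and 0.92 and exercised levels of 1.01, 1.21 and 1.29. Stress rats 5 and 6 were at 1.11 and 1.05, inside the exercised range, and the groups did not overlap. Its difference was 0.40 ± 0.07 (adjusted p 0.00095) and its slide step 0.29. Mag, a myelin glycoprotein gene, differed by 0.36 with a slide step of 0.27, and its other probe differed by -0.09. The kinesin gene Kif5c differed by 0.43 with a slide step of 0.40. Klhl29 and Lime1 differed by 0.46 and 0.47, with slide steps of 0.32 and 0.39.

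**Figure D2:**
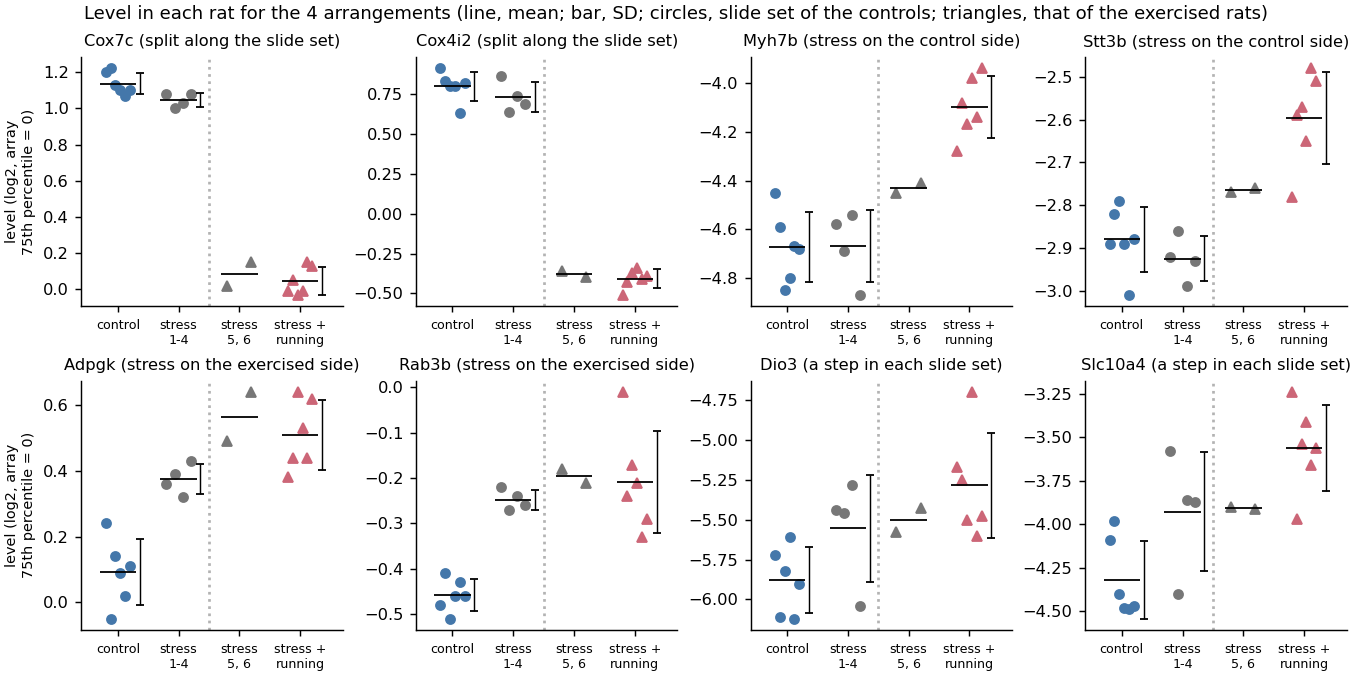
Level in each rat (log2, 0 is the array's 75th percentile) for 8 genes, with circles for the slide set of the controls, triangles for that of the exercised rats, a line for the mean and a bar for the SD. In Cox7c and Cox4i2 stress rats 5 and 6 sit with the exercised rats, in Myh7b and Stt3b the stress rats sit nearer the controls, in Adpgk and Rab3b nearer the exercised rats, and Dio3 and Slc10a4 have a step in each slide set.

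Among the 91 genes in which all stress rats were on the control side, 50 were higher and 41 lower in exercised rats, and 38 (41.8%) had groups that did not overlap, against 16.9% of all genes and 59.9% of those called. Slide as a random block left 8 of the 91 (8.79%), against 15.8% of the called genes. Myh7b, a myosin heavy chain gene, had control levels of -4.85, -4.68 and -4.45 and exercised levels of -4.28, -4.11 and -3.94. The groups were apart, and stress rats 5 and 6, at -4.45 and -4.41, lay between them. The difference was 0.57 ± 0.08 (adjusted p 0.000576, and 0.0237 with slide as a random block), made of a wheel step of 0.33, a slide step of 0.24 and a restraint step of 0.01. Stt3b, a catalytic subunit of the enzyme that attaches sugar chains to new proteins, rose by 0.29 with a wheel step of 0.17. Sdf2l1, a partner of chaperones in the endoplasmic reticulum, rose from a control range of -0.46 to -0.26 to an exercised range of -0.20 to 0.03. Its difference was 0.27 ± 0.05 (adjusted p 0.00119) with a wheel step of 0.15, and stress rats 5 and 6, at -0.22 and -0.23, lay just below every exercised rat.

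Lower genes of this kind included Lrat. This gene, whose product stores vitamin A as an ester, had control levels of -6.08, -5.70 and -5.62 and exercised levels of -7.64, -6.73 and -6.21. Stress rats 5 and 6, at -5.64 and -6.04, were among the control rats, and the groups did not overlap. Its difference was -0.98 ± 0.20 (adjusted p 0.00257, and 0.0832 with slide as a random block), and the wheel step of -0.95 was nearly all of it. The ceramidase gene Acer2 fell by 0.49 and the carboxylesterase genes Ces1d and Ces1c fell by 0.48 and 0.35, with wheel steps of -0.28, -0.32 and -0.36. The 2 carboxylesterases are close relatives, and a probe of 1 may read the other. Nhlh2, a transcription factor gene of hypothalamic neurons, had a difference of -0.41 and a wheel step of -0.47. Crebbp, which acetylates histones and other proteins, fell by 0.20 ± 0.03 and stayed called with slide as a random block (adjusted p 0.038), though its other probe differed by 0.18.

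Trh, the hypothalamic hormone that drives the thyroid axis, belonged here as well. Control rats were at -0.27, -0.01 and 0.20 and exercised rats at -0.51, -0.35 and -0.12. The ranges overlapped, and stress rats 5 and 6, at -0.16 and -0.12, lay at the top of the exercised range. Its difference was -0.32 ± 0.08 (adjusted p 0.0066, and 0.162 with slide as a random block), with a wheel step of -0.19 and a slide step of -0.13.

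Of the 41 genes with all stress rats on the exercised side, 26 were higher and 15 lower, 12 (29.3%) did not overlap between groups, and slide as a random block left 5 (12.2%). Both shares were below those of the called genes. Adpgk, which encodes a glucokinase that uses ADP, had control levels of -0.05, 0.10 and 0.24 and exercised levels of 0.38, 0.48 and 0.64. All stress rats were above every control rat, with stress rats 1 to 4 between 0.32 and 0.43. The difference was 0.42 ± 0.06 (adjusted p 0.000607, and 0.0292 with slide as a random block), of which the restraint step was 0.28 and the slide step 0.19. Rab3b, a small GTPase of secretory vesicles, had control levels of -0.51, -0.46 and -0.41 and exercised levels of -0.33, -0.22 and -0.01. Stress rats lay between -0.27 and -0.18, above every control rat whichever slide set they were on. The difference was 0.25 ± 0.04 (adjusted p 0.00107, and 0.0295 with slide as a random block), with a restraint step of 0.21 and a wheel step of -0.01. Msantd1 rose by 0.38 with a restraint step of 0.33 (0.0255 with slide as a random block). The glycosyltransferase-like gene B3gntl1 fell by 0.82, with a restraint step of -0.47 and a slide step of -0.52. Gad1, which makes the inhibitory transmitter GABA, rose by 0.17 ± 0.05 with a restraint step of 0.13, and its other probe by 0.19.

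Genes of cholinergic neurons of the forebrain gave the highest median of the gene lists. These neurons make acetylcholine with the product of Chat, load it into vesicles with that of Slc18a3, and take choline back up with that of Slc5a7. Of 9 genes tested 8 were higher and 0 lower in exercised rats (88.9% called, against 26.7% of all genes). The median difference was 0.70 against 0.03 over all genes. The median restraint step was 0.50, the slide step 0.08 and the wheel step 0.02. None of the 8 was called with slide as a random block in limma, against 4.21% of all genes. In that fit 7 of the 9 had an unadjusted p under 0.05, against 2557 of all 13026 genes. Without that block, 6 to 8 were called when any single rat was left out. With no scaling of the arrays 6 were called.

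Chat was the most variable of them. Control levels were -2.69, -2.62 and -2.02 and exercised levels were -2.78, -1.72 and -1.10. The ranges overlapped fully, since exercised rat 5 was lower than every control rat, while stress rats 5 and 6, at -1.60 and -1.86, were above all controls. The difference was 0.73 ± 0.23 (adjusted p 0.0244), with a restraint step of 0.71 and a wheel step of -0.05, and the call was lost without exercised rat 1, 3 or 4 (0.60 to 0.68). Slc10a4, a vesicle protein gene of cholinergic cells, had control levels of -4.49, -4.43 and -3.98 and exercised levels of -3.97, -3.55 and -3.24. The groups nearly touched, and stress rats 5 and 6, at -3.90 and -3.91, lay just above the highest control. Its difference was 0.75 ± 0.14 (adjusted p 0.00118, and 0.0568 with slide as a random block), with a restraint step of 0.39 and a wheel step of 0.34.

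Transcription factors and a receptor of these neurons followed. Lhx8, a homeobox gene that specifies them, had control levels of -1.22, -1.12 and -1.04 and exercised levels of -0.92, -0.39 and -0.07. Every exercised and every stress rat was above every control rat. Its difference was 0.67 ± 0.13 (adjusted p 0.0016, and 0.0666 with slide as a random block) with a restraint step of 0.50. Ngfr, a neurotrophin receptor gene, rose by 0.83, with a restraint step of 0.68 and a slide step of 0.13. Slc5a7 rose by 0.70, the homeobox gene Gbx1 by 0.65 and Slc18a3 by 0.39, the last with an adjusted p of 0.0423 that was lost without any of 9 of the 12 rats. Whether these genes moved together from rat to rat was not tested. The mean level of the list ran from -3.33 to -3.10 in control rats and from -3.18 to -2.19 in exercised rats, with exercised rat 5 the lowest. In stress rats 1 to 4 it ran from -3.09 to -2.48, and in stress rats 5 and 6 it was -2.55 and -2.77.

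**Figure D3:**
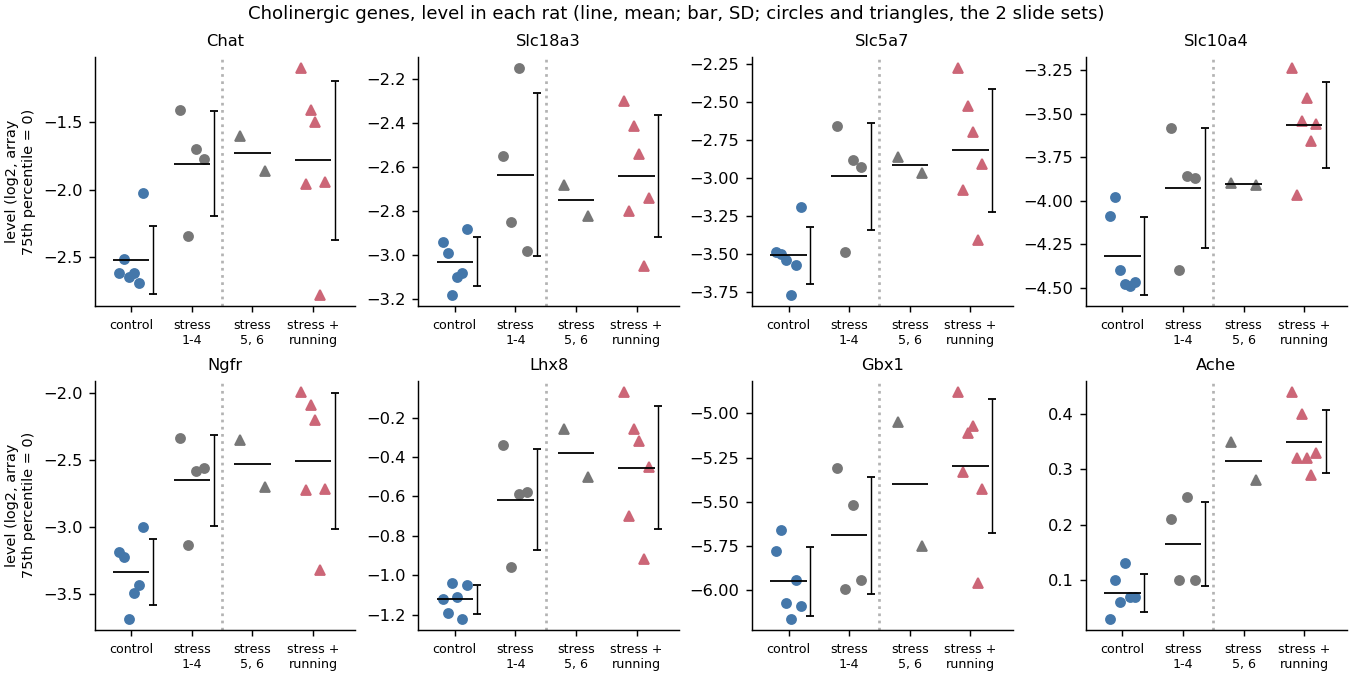
Level in each rat (log2, 0 is the array's 75th percentile) for 8 cholinergic genes, with circles and triangles for the 2 slide sets, a line for the mean and a bar for the SD. Most stress and exercised rats lie above the controls on both slide sets, and exercised rat 5 lies lowest of its group in 7 of the 8 genes, all but Slc10a4.

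Ache, which breaks acetylcholine down, had control levels of 0.03, 0.07 and 0.13 and exercised levels of 0.29, 0.33 and 0.44. The groups were well apart, and stress rats 5 and 6, at 0.35 and 0.28, were close to the exercised rats. Its difference was 0.27 ± 0.04 (adjusted p 0.000714, and 0.0246 with slide as a random block), with a slide step of 0.15 as the larger part. Prima1, which anchors that enzyme in the membrane, rose by 0.41, but its other probe fell by 0.56, so the gene has no settled direction. In the wider cholinergic list of 20 genes, which holds those above, 10 were higher and 2 lower (60% called, against 26.7% of all genes). The lower genes, Chrnb4 and Tbx3, differed by -0.61 and -0.96 and had slide steps of -0.70 and -1.08. The other Tbx3 probe differed by -0.07 and was not called.

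The striatum, a neighbouring region dense in dopamine receptors, was read through 14 marker genes. Of these 7 were higher and 1 lower (57.1% called, against 26.7% of all genes). The median difference was 0.28, in median steps of 0.04 (restraint), 0.07 (slide) and 0.15 (wheel). Without control rat 3 or without exercised rat 1, 3 or 4, there were 4 higher genes. Mean levels of the list ran from -1.73 to -1.48 in control rats and from -1.62 to -1.23 in exercised rats. The dopamine receptor gene Drd2 rose by 0.42, the adenosine receptor gene Adora2a by 0.65, the phosphodiesterase gene Pde10a by 0.43, Rgs9 by 0.35 and Ppp1r1b, the dopamine signalling integrator DARPP-32, by 0.34. Gng7 went the other way on its brightest probe (-0.75, slide step -0.98), and its other probe differed by 0.46. With slide as a random block 0 were higher and 1 lower (7.14% called, against 4.21% of all genes). In that fit 5 of the 14 had an unadjusted p under 0.05 in limma. How much neighbouring tissue each dissection held was not tested, and in bulk tissue more cells of a type and more RNA per cell cannot be told apart. Markers of the hypothalamus itself were present, with 17 of 18 tested. Their mean level ran from -2.88 to -2.74 in control rats and from -2.93 to -2.71 in exercised rats. Of the 17 tested 2 (11.8%) were lower, Nkx2-2 and Lhx6. Of 9 thalamus genes 0 were called, and 0 had an unadjusted p under 0.05 in limma. Their median standard error was 0.285, against 0.066 over all genes, so 0 calls does not show that the groups were alike. Their mean level ran from -2.29 to -1.07 in control rats and from -2.09 to -0.98 in exercised rats. The median steps were -0.42 (restraint), 0.26 (slide) and 0.21 (wheel).

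Chaperones of the endoplasmic reticulum are made when unfolded protein collects in that compartment. Of 21 tested genes of the endoplasmic reticulum list 6 were higher and 0 lower, so that 28.6% were called, near the 26.7% of all genes. The median difference was 0.06 against 0.03. With slide as a random block 1 gene was called (4.76%, against 4.21% of all genes). Creld2, a protein-folding gene of that compartment, had control levels of -2.74, -2.52 and -2.38 and exercised levels of -2.34, -2.21 and -2.08. The groups met without overlapping, and stress rats 1 to 4, between -2.43 and -2.34, lay from the upper control range to the lowest exercised rat. Its difference was 0.32 ± 0.06 (adjusted p 0.00117, and 0.0488 with slide as a random block), with a restraint step of 0.16, a slide step of 0.01 and a wheel step of 0.15.

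Hspa5, the master chaperone BiP, had control levels of 2.27, 2.33 and 2.41 and exercised levels of 2.43, 2.45 and 2.54. Every exercised rat was above every control rat, and stress rats 5 and 6, at 2.36 and 2.38, were below every exercised rat on their own slide set. The difference was small, 0.13 ± 0.03 (adjusted p 0.00843, and 0.129 with slide as a random block), with a wheel step of 0.10 and a slide step of -0.03. Pdia4, which rearranges disulfide bonds, rose by 0.25 ± 0.07 with a wheel step of 0.22, from control levels of -3.60, -3.47 and -3.27 to exercised levels of -3.35, -3.17 and -3.09. Its ranges overlapped by 1 control rat. Dnajb11 and Sel1l, a chaperone partner and a degradation factor, rose by 0.31 and 0.16 but had slide steps of 0.25 and 0.16.

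Among 16 heat shock genes of the cytosol 4 were higher (Hspa1a, Dnajb4, Hsf1 and Stip1) and 1 lower (Hspa4l). That was 31.2% called, with a median of 0.02, both near the values over all genes. With slide as a random block 2 higher ones were called (12.5%, against 4.21% of all genes). Hspa1a, the inducible heat shock protein 70 gene, had control levels of -2.35, -2.21 and -2.02 and exercised levels of -1.98, -1.72 and -1.51. All exercised rats were above all controls, and stress rats 1 to 4, between -1.98 and -1.51, matched the exercised range. The difference was 0.46 ± 0.09 (adjusted p 0.00151, and 0.0353 with slide as a random block), with a restraint step of 0.42, a slide step of -0.19 and a wheel step of 0.24. Its slide step ran against the difference. A near-identical gene, Hspa1b, may be read by the same probe, and the other Hspa1a probe differed by 0.39 without a call. Stip1, which hands clients from HSP70 to HSP90, rose by 0.21 (0.0374 with slide as a random block) in steps of 0.08, 0.04 and 0.09. Hsf1, the factor that switches these genes on, rose by 0.29 with a slide step of 0.18.

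Antioxidant genes gave 8 higher and 0 lower of 24. The share called was 33.3% against 26.7% of all genes, and the median was 0.04 against 0.03. Hmox1, which breaks down heme, had control levels of -3.69, -3.55 and -3.51 and exercised levels of -3.49, -3.32 and -3.24. The groups did not overlap, and stress rats 1 to 4, between -3.46 and -3.24, were above all controls. Its difference was 0.22 ± 0.05 (adjusted p 0.00487, and 0.0884 with slide as a random block), with a restraint step of 0.18 and a slide step of -0.04. Nfe2l2, the transcription factor NRF2 that drives Hmox1, rose by 0.21 with a restraint step of 0.15 and a wheel step of 0.16. Srxn1, Gsr and Gpx4 rose by 0.22, 0.25 and 0.21, with slide steps of 0.19, 0.34 and 0.21, of which that of Gsr was larger than its whole difference. With slide as a random block 0 of the 24 were called, against 4.21% of all genes (6 had an unadjusted p under 0.05 in limma). With no scaling 1 was called.

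**Figure D4:**
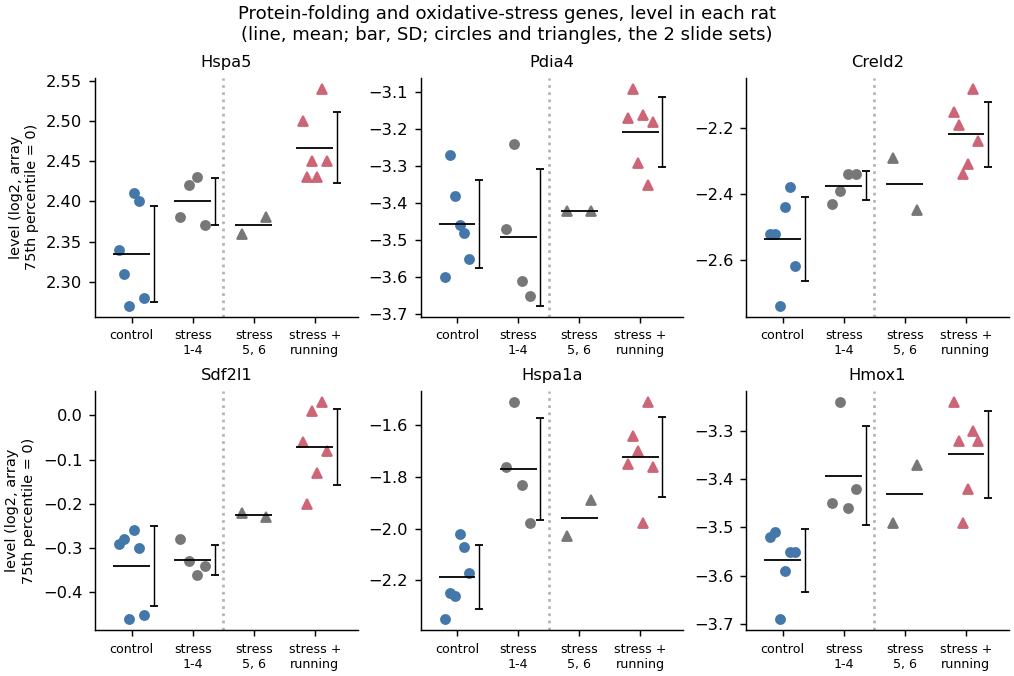
Level in each rat (log2, 0 is the array's 75th percentile) for 6 genes of protein folding and oxidative stress, with circles and triangles for the 2 slide sets, a line for the mean and a bar for the SD. Exercised rats lie above the controls without overlap in all but Pdia4, and in Hspa5, Pdia4 and Sdf2l1 also mostly above stress rats 5 and 6 of the same slide set.

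Few genes of the stress axis were called. Of 22 tested 1 was higher and 1 lower (9.09% called, against 26.7% of all genes), with a median of 0.07 against 0.03. The list's median standard error was 0.107, against 0.066 over all genes, so the low share does not show that the groups were alike. Crh had control levels of -1.50, -1.37 and -1.15 and exercised levels of -1.37, -1.25 and -0.88. The ranges overlapped, and stress rats 1 to 4, between -1.20 and -0.79, lay above the control median. The difference was 0.15 ± 0.10 (adjusted p 0.289), with a restraint step of 0.35. Oxytocin, Oxt, had control levels of 2.90, 3.02 and 3.05 and exercised levels of 3.07, 3.12 and 3.43. No exercised rat was below a control rat. The difference of 0.20 ± 0.09 still did not pass with the stress rats in the fit (adjusted p 0.122). The SD of Oxt was 0.06 in control, 0.16 in exercised and 0.22 in stress rats, and this SE pools them. Fitted without the stress rats, Oxt passed in limma (adjusted p 0.0453), while with slide as a random block it did not (0.55). Its restraint step was 0.36. Avp differed by 0.14 (adjusted p 0.276) and Pomc by -0.05.

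The called pair were Adcyap1r1 and Ucn3. Adcyap1r1, the receptor of the stress peptide PACAP, had control levels of 1.76, 1.84 and 1.88 and exercised levels of 2.04, 2.09 and 2.16. The groups were apart, and stress rats 5 and 6, at 2.08 and 2.01, lay near the exercised rats. Its difference was 0.26 ± 0.04 (adjusted p 0.000714, and 0.0343 with slide as a random block), with a slide step of 0.12 and a restraint step of 0.10, while its other probes, from 0.04 to 0.12, were not called. Ucn3, a peptide of the Crh family, fell by 0.36 ± 0.11 (adjusted p 0.0262, and 0.245 with slide as a random block). With any 1 rat left out, the stress axis list had 0 to 1 lower genes. Among 19 glucocorticoid-responsive genes 0 were called, against 26.7% of all genes. In limma 6 of the 19 had an unadjusted p under 0.05, against 5023 of all 13026 genes. When 1 rat was left out, 0 to 2 of these glucocorticoid-responsive genes were higher and 0 to 1 lower. Fkbp5, which such hormones induce, differed by -0.17 (adjusted p 0.073) with a slide step of -0.29, and the receptor gene Nr3c1 differed by -0.03.

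Feeding genes were called in both directions. Of 28 feeding genes 3 were higher (Npy, Hcrtr1 and Qrfp) and 3 lower (Npy1r, Socs3 and Trh), and 1 was lower without exercised rat 6. The 21.4% called was below the 26.7% of all genes. Slide as a random block left 0, against 4.21% of all genes (2 had an unadjusted p under 0.05 in limma). Npy, which drives feeding, had control levels of 1.06, 1.36 and 1.52 and exercised levels of 1.49, 1.67 and 1.81. Only 1 control rat reached the exercised range, and stress rats 5 and 6 were at 1.40 and 1.47. Its difference was 0.32 ± 0.09 (adjusted p 0.0129, and 0.109 with slide as a random block), with a restraint step of 0.23, a slide step of -0.13 and a wheel step of 0.22. Qrfp, another feeding peptide, rose by 0.70, and Agrp, made by the same cells as Npy, differed by 0.23 (adjusted p 0.3085). Of 15 genes for hypothalamic hormones and related peptides 0 were higher and 3 lower (Trh, Pnoc and Prlh), or 20% called. Slide as a random block left 0 of the 15, against 4.21% of all genes (3 had an unadjusted p under 0.05 in limma, against 2557 of all 13026 genes). Pnoc, the nociceptin precursor, fell by 0.24 with a wheel step of -0.24. Dio3, which inactivates thyroid hormone, rose by 0.59 ± 0.15 (adjusted p 0.00813, and 0.161 with slide as a random block) in a restraint step of 0.32, a slide step of 0.05 and a wheel step of 0.22.

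Vascular genes included natriuretic peptide receptors. Of 24 tested 3 were higher (Nos3, Npr1 and Npr2) and 2 lower, of which Agtr1b is described above, and 2 were called with slide as a random block. The 20.8% called was below the 26.7% of all genes. With slide as a random block 4.21% of all genes were called. Npr1 rose by 0.26 with a slide step of 0.16, and Nos3, the endothelial nitric oxide synthase gene, by 0.22 with a wheel step of 0.13. Of 28 interferon and antigen-presentation genes 5 were higher and 3 lower, and 1 was lower without control rat 3, 5 or 6 or without exercised rat 6. This was 28.6% called, beside 26.7% of all genes, and slide as a random block left 1. Bst2 and Psmb8, both interferon-induced, rose by 0.29 and 0.24. Of 16 clock genes 4 were higher and 1 lower, and 2 were higher without exercised rat 2. The share called was 31.2%, and slide as a random block left 0 (4 had an unadjusted p under 0.05 in limma). Nr1d1 rose by 0.45 with a slide step of 0.40, Dbp rose by 0.30 and Cry1 fell by 0.18. Of 19 immediate early genes 0 were higher and 2 lower (Fosl2 and Btg2), or 10.5% called, and Fos differed by 0.08. Their median standard error was 0.131, against 0.066 over all genes.

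Of 33 synaptic vesicle genes 7 were higher and 0 lower, or 21.2% called against 26.7% of all genes, with a median of 0.09 and a median slide step of 0.11. The vesicle genes Syn1, Sv2a and Cplx1 rose by 0.24, 0.27 and 0.37, and Dnm1, which pinches off vesicles, by 0.29. Syn1 and Sv2a had slide steps of 0.21 and 0.26. With slide as a random block 1 of the 33 was called (3.03%, against 4.21% of all genes). Of 26 genes of the neuronal cytoskeleton 9 were higher and 1 lower (38.5% called), with a median of 0.11 and a median slide step of 0.14. The neurofilament genes Nefl and Nefh both rose by 0.37, with slide steps of 0.30 and 0.40, and slide as a random block left 0 of the 26 called (8 had an unadjusted p under 0.05 in limma).

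Of 36 genes of glutamate and GABA transmission 6 were higher and 3 lower, a share of 25% beside 26.7% of all genes. With slide as a random block 3 were called (8.33%, against 4.21% of all genes). Grik1, a kainate receptor subunit, had control levels of -2.19, -2.09 and -1.87 and exercised levels of -2.59, -2.49 and -2.28. The groups were apart, and all stress rats, between -2.37 and -2.26, lay below the controls. Its difference was -0.41 ± 0.06 (adjusted p 0.000559, and 0.0195 with slide as a random block), with a restraint step of -0.23, a slide step of -0.02 and a wheel step of -0.16. Gad2, the second GABA-making enzyme, rose by 0.34 with a slide step of 0.26. Gabbr1, a subunit of the GABA-B receptor, fell by 0.32 with a slide step of -0.25, and its other probe differed by 0.04. The serotonin receptor gene Htr2c fell by 0.17 with a restraint step of -0.13, and its other probe differed by 0.18.

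Mitochondrial genes went both ways. Of 76 genes of oxidative phosphorylation 7 were higher and 11 lower, with a median of 0.01. The 23.7% called was below the 26.7% of all genes. Slide as a random block left 5, all lower (6.58%, against 4.21% of all genes). Beside Cox7c and Cox4i2, the complex II gene Sdhc fell by 0.29 with a slide step of -0.18. The ATP synthase genes Atp5mc3 and Atp5f1d rose by 0.25 and 0.20, with slide steps of 0.22 and 0.14. Cox5a fell by 0.21 with a wheel step of -0.11, while its other probe differed by -0.02 and was not called. Without control rat 5 or 6 or exercised rat 3 there were 4 higher genes, without control rat 4 there were 7 lower, and with no scaling 0 were higher and 8 lower. Of 67 mitochondrial ribosomal proteins 12 were higher and 9 lower (31.3% called), and slide as a random block left 3.

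Cholesterol synthesis was split as well, with 5 of 25 genes higher and 3 lower (32% called). With slide as a random block 2 were called (8%, against 4.21% of all genes). Idi1 and Fdft1 were among the lower genes. Idi1, which makes the isoprene building block, had control levels of 0.50, 0.57 and 0.70 and exercised levels of 0.30, 0.36 and 0.47. The groups did not overlap, and stress rats 5 and 6, at 0.47 and 0.53, lay near the controls. Its difference was -0.23 ± 0.04 (adjusted p 0.000811, and 0.0447 with slide as a random block), with a wheel step of -0.14. The other Idi1 probe fell by 0.28 and was 1 of the 7 probes called with slide set as a covariate, at -0.35 (adjusted p 0.0478). Fdft1, the squalene synthase gene, fell by 0.47 with a slide step of -0.44. Of the other 6 of those 7 probes 3 had a name. Or5p66 moved from -1.10 (adjusted p 0.0777) to 1.52 under that covariate, a value that rests on stress rats 5 and 6, in which its probe was not well above background. Kif16b, on a probe that is not its brightest, and Rnase12 had adjusted differences of -2.83 and -0.82. Without the covariate they differed by -0.12 (adjusted p 0.8846) and -0.18 (adjusted p 0.3112), and neither was called. The Kif16b probe was at -3.95 and -3.90 in stress rats 5 and 6, against means of -6.39 in control and -6.51 in exercised rats.

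**Figure D5:**
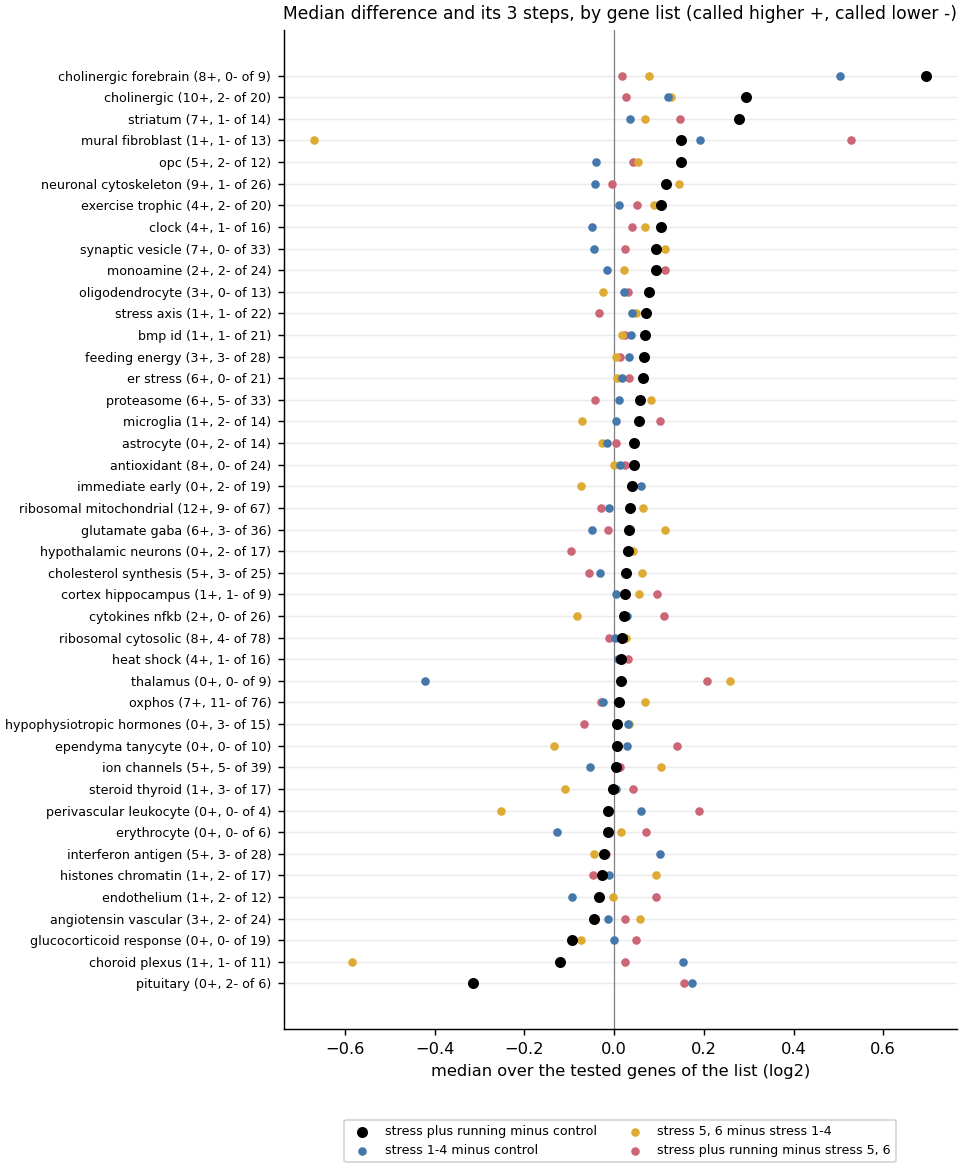
Median over the tested genes of each list (log2, x axis) of the difference between exercised and control rats (black) and of its 3 steps (blue, yellow and red), with the counts called higher and lower beside each name. The cholinergic forebrain genes stand at 0.70, mostly in the restraint step of 0.50, and most other lists have medians near 0.

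A last set of called genes had little of the slide step. It was defined after the values were seen, as genes whose slide step was under 25% of the difference and whose other steps both shared its sign. It held 423 of the 3473 called genes, 224 higher and 199 lower. Groups did not overlap in 179 (42.3%, against 59.9% of the called genes). Slide as a random block left 61 (14.4%, against 15.8% of the called genes), and slide set as a covariate left 0 (limma). The members named here were likewise chosen after their values were seen. Maip1, a mitochondrial protein gene, had control levels of -1.39, -1.34 and -1.30 and exercised levels of -1.65, -1.60 and -1.55. The groups were apart, and all stress rats, between -1.57 and -1.44, lay below the controls. Its difference was -0.26 ± 0.03 (adjusted p 0.000425, and 0.0195 with slide as a random block), with a restraint step of -0.18, a slide step of -0.01 and a wheel step of -0.06.

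Sec23b, a coat protein of vesicles that leave the endoplasmic reticulum, had control levels of 0.19, 0.25 and 0.37 and exercised levels of -0.08, -0.01 and 0.04. Stress rats 5 and 6, at 0.16 and 0.11, lay between groups that did not overlap. Its difference was -0.28 ± 0.04 (adjusted p 0.000535, and 0.0195 with slide as a random block), with a restraint step of -0.13, a slide step of -0.00 and a wheel step of -0.15. Slc27a1, which moves fatty acids into cells, rose by 0.27 in steps of 0.12, -0.02 and 0.17 (0.0203 with slide as a random block). Ddhd1, a phospholipase gene, fell by 0.48, although its other probe differed by 0.09. Sowahc had control levels of -3.60, -3.48 and -3.34 and exercised levels of -4.02, -3.93 and -3.69. The groups were apart, and the difference of -0.42 ± 0.05 (adjusted p 0.000425, and 0.0195 with slide as a random block) was made of a restraint step of -0.19, a slide step of 0.04 and a wheel step of -0.27.

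Markers of other cells and tissues were read the same way. Over all genes 26.7% were called, and 4.21% with slide as a random block. Of 14 astrocyte genes 0 were higher and 2 lower, of 13 oligodendrocyte genes 3 were higher, and of 14 microglia genes 1 was higher and 2 lower, and slide as a random block left 1 of each list. Of 12 genes of oligodendrocyte precursors 5 were higher and 2 lower (58.3%), 5 of the called ones were split along the slide set, and slide as a random block left 0 (5 had an unadjusted p under 0.05 in limma). Of 12 endothelial genes 1 was higher and 2 lower. Of 12 pituitary genes 6 could be tested, and 2 were lower: Pou1f1 by a difference of -0.92 (wheel step -0.44) and Pitx1 by -0.57 (slide step -0.90). The mean level of the 6 ran from -3.79 to -2.03 in control rats and from -3.93 to -2.35 in exercised rats, so rats of 1 group varied widely. It lay between -2.10 and -1.86 in stress rats 1 to 4 and at -4.10 and -4.12 in stress rats 5 and 6, so that these markers moved with the slide step. Genes of mural cells and fibroblasts and of the choroid plexus had median slide steps of -0.67 and -0.58. The part of such cells in the results above was not tested.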

How the data were processed

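Total RNA from 18 rat hypothalami was labelled with Cy3 and hybridised to 1-colour Agilent arrays. Per the file headers, the deposited intensity of each spot is Agilent Feature Extraction's processed signal, corrected for background and spatial trend (version 12.1.0.3, while the submitters' processing notes name 9.1). The labels state 2 different amounts of input RNA. The authors' deposited series matrix was the same intensity times 1 constant per array, from 1.02 to 1.24.

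Control spots and spots marked as outliers (297 to 580 per array) were left out, the log2 intensity was taken relative to the array's 75th percentile over spots that are not controls, and spots of a probe were averaged. Testing was limited to probes that the scanner software marked above background on 5 or more arrays of the control or the exercised group. Probes were named through their transcript accession in a RefSeq table of GRCr8: 21220 of 45598 matched 1 symbol, 0 several and 24378 none. Groups were compared with limma 3.58.1 (R 4.3.3) in a fit of group means on the 18 arrays, two-sided, with Benjamini-Hochberg adjustment over the 31195 probes, and the fit was tested on simulated data. The 3 steps come from a fit with the stress rats split by slide set. Same-numbered rats were not paired (correlations of their deviations from -0.234 to 0.127). Slide as a random block had a consensus correlation of 0.369. Scanner files hold no mean signal, so the normexp alternative used median signals (offset 50).

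A rule picked genes for description. It took up to 6 largest differences per direction in each arrangement of the stress rats. From each function list it took up to 4 called members by size, or the 2 with the smallest p where none was called. Up to 2 came from each cell list, and a set of stress and feeding genes was added. Genes beyond the rule were described too, among them Hspa5, Sel1l, Prima1, Lhx8, Gbx1, Slc5a7, Slc18a3 and Ache. Their choice was not fixed by it. The comparison, the gene lists and the rule were chosen with earlier results of these data known. The number of arrays limits the precision.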

Additional observations from a re-analysis of the deposited data

Results flagged for a closer look

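In groups of 6 rats, a single rat stood far from the others of its group for 13 of the values looked at, by Dixon's criterion for the gap to the nearest rat over the group's range. Chance marks about 1 in 20 groups, and 224 groups were looked at over 112 genes. Exercised rat 2 was the rat concerned in 5 of the 13.

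That rat was low for both enzymes that make GABA, with a level of 2.91 for Gad1 (other exercised rats 3.05 to 3.13) and -1.05 for Gad2 (-0.81 to -0.68). It was also low for the immunoproteasome gene Psmb8, at -4.09 (-3.90 to -3.79), and the serotonin receptor gene Htr2c, at -0.16 (-0.10 to -0.06), and high for Sowahc, at -3.69 (-4.02 to -3.92). Exercised rat 1 was low for Gabbr1, at 1.98 (2.09 to 2.14). Exercised rat 6 was high for Ndufs7, a complex I gene, at 1.83 (1.70 to 1.74).

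Among control rats, rat 6 was high for Chat, at -2.02 (other controls -2.69 to -2.51), and rat 1 was high for Pde10a, at -1.02 (-1.27 to -1.21), and low for Oxt, at 2.90 (3.00 to 3.05). Control rat 3 was low for the peptide gene Qrfp, at -6.33 (-5.64 to -5.23). Control rat 5 was low for Srxn1, at -1.24 (-1.12 to -1.07), and for Syn1, at -0.19 (-0.04 to 0.03).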

How the results depend on the processing

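The count of called probes (8164) and of called genes split along the slide set (1333), on the control side (91) and on the exercised side (41) fell to 7, 1, 0 and 0 with slide set as a covariate and to 1769, 350, 8 and 5 with slide as a random block. With no scaling they were 5182, 630, 46 and 7. Within scan days 1 and 2 there were 4884 and 5310 called probes. Leaving out 1 rat gave 6993 to 7528 probes, 1186 to 1241 split genes, 67 to 103 on the control side and 32 to 46 on the exercised side. The cause of these moves was not tested, except that fewer rats enter within a day. The replicate block gave 7123 probes and 1206, 66 and 29 genes; the numbers do not pair the rats. The 12-array fit, scan day as a block, quantile normalization, normexp, the deposited matrix and both filters kept all 4 counts within 1.5 times, as did the percentile over probes, chosen after seeing the data.

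With slide set as a covariate 94 of 112 described genes kept their direction without passing the threshold, and 15 changed sign: Cyp11a1 (0.13), Rpl39l5 (0.09), Abcg8 (0.20), Sox9 (0.03), Sel1l (-0.00), Gsr (-0.09), Avp (-0.04), Nefh (-0.03), Gng7 (0.23), Tbx3 (0.12), Chrnb4 (0.09), Gpx4 (-0.00), Or5p66 (1.52), Pitx1 (0.33) and Fkbp5 (0.11). The cause was not tested. Within scan day 1 Crh (-0.02) and Avp (-0.02) changed sign. Slide as a random block lost 68 calls of the 112 genes, and no scaling 30, with no change of sign.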
